A study of Mus musculus with 12 samples.

Results

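The circadian clock genes described here are 10 genes of the molecular clock in mouse liver, namely Arntl, Clock, Per1, Per2, Per3, Cry1, Nr1d1, Nr1d2, Dbp and Tef. They were chosen by gene symbol, with earlier results of these data known, and all 10 were found among the 51912 genes of the count table. The clock is a feedback loop of transcription. In its positive limb, Arntl (also called Bmal1) and Clock encode partner proteins that bind DNA together at E-boxes and switch on their targets. In its negative limb, the Period and Cryptochrome proteins hold this pair back, and Nr1d1 and Nr1d2 encode REV-ERB-alpha and REV-ERB-beta, nuclear receptors that repress Arntl. Dbp and Tef encode PAR bZIP factors, output activators that bind D-boxes and pass the rhythm on to liver enzymes, among them enzymes of drug metabolism. In the livers of mice kept in light and dark, the Arntl transcript is known to peak around the end of the dark phase, Nr1d1 and then Dbp during the light phase, and the Per transcripts around the change from light to dark, so these genes bear on the hour at which a liver was taken.

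Liver RNA of 12 male mice in 4 groups of 3 was sequenced. WT mice received corn oil, the vehicle, in 1 group. In the other groups WT mice, hCAR/hPXR mice and mice of the line Car KO/hPXR received CITCO, an agonist of the human nuclear receptor CAR, at 10 mg/kg, by daily intraperitoneal injection for 4 days before they were killed on day 5. The hCAR/hPXR mice carry human CAR and human PXR in place of the mouse receptors, and the Car KO/hPXR mice lack Car and carry human PXR, both on a C57BL/6NTac background. The authors cite work, mainly in cultured cells, which proposes that human PXR is a target of CITCO too. All corn oil libraries analysed here came from WT mice, so that genotype and response to CITCO cannot be told apart in the humanised and null lines. The mice were kept on a light/dark cycle with free access to food, but the hour of killing is not given in the sources used here, and neither is the order in which mice were taken.

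The libraries read the 3' ends of transcripts and held between 1167027 and 2341572 counts. Levels are given as CPM, counts scaled to library size by TMM, and are compared between mice for the same gene only. Replicates of a group are taken as separate mice. A gene was called when its adjusted p-value (quasi-likelihood test of edgeR, adjusted by Benjamini and Hochberg over 8594 genes) was under 0.05 and its fold change over 1.5, and in the test of any difference among the 4 groups when the adjusted p-value was under 0.05. Of the 10 clock genes, 9 passed the filter on low counts and Arntl did not. The 5 hepatocyte markers examined (Alb, Apoa1, Ttr, Serpina1c and Cps1) summed to between 22260 and 36887 CPM and the 5 lymphocyte markers to between 0 and 8.35 CPM. In whole liver, fewer cells of a type and less RNA per cell cannot be told apart. In the mice without mouse Car, the Car gene Nr1i3 was read at no more than 5.0 CPM in each of 6 libraries, against 73.3 CPM or more in each of the 6 WT libraries.

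The E-box and D-box are the letters through which this loop works, so the promoters of the clock genes were read first. RefSeq windows of 250 bases before a transcription start on GRCm38.p6 were found for 9 of the 10 genes, 14 windows in all, with Per2 the exception. The E-box CACGTG, which reads the same on both strands, was present in a window of 3 of the 9 (Per1, Cry1 and Tef) and in 6.02% of all 32851 windows. A D-box, searched as TTATGTAA or TTACGTAA on both strands, was present in 1 of the 9 (Per3) and in 0.931% of all windows. The REV-ERB element TAGGTCA, searched on both strands, was present in none of the 9 and in 2.23% of all windows. The shares are of windows, whereas a gene with several windows was counted when any of them held a match, so the units are unlike. These matches are a description of letters and not of binding. Bases after the start and other spellings of these elements were not searched, so a gene without a match can still hold such a site. The stretches that hold a match in Per1 (chr11:69098758-69098813, plus strand), Cry1 (chr10:85185084-85185139, minus strand) and Per3 (chr4:151044791-151044895, minus strand) are shown 5′ to 3′ with the motif in capitals, since they show both kinds of site.
Per1: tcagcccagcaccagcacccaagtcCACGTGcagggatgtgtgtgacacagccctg
Cry1: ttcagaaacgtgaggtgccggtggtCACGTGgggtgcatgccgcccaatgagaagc
Per3: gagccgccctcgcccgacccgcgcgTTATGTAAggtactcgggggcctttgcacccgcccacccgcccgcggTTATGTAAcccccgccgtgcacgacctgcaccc
The E-box of Per1 begins 166 bases before the start and that of Cry1 60 bases before it, and the D-boxes of Per3 begin 205 and 158 bases before it. The windows of Nr1d1 and Dbp, the genes that were called below, held none of these letters.

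Arntl (ENSMUSG00000055116, chromosome 7, 113207465 to 113314126 of GRCm38), the DNA-binding partner in the positive limb, was read with 12 counts over all 12 libraries. The WT corn oil mice had 1, 0 and 4 counts, the WT CITCO mice 2, 0 and 0, the hCAR/hPXR mice 1, 0 and 3, and the Car KO/hPXR mice 0, 1 and 0. Libraries of every group were at 0 and 6 of the 12 libraries were at 0, so that no group stood apart. A count of 3 corresponds to between 1.28 and 2.57 CPM in these libraries, which covers counting error only, and a difference in Arntl between groups was not detectable at this depth. Npas2, which can take the place of Clock as partner, was read with 2 counts in all, both in hCAR/hPXR mice, and was not tested either.

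Clock (chromosome 5, 76209868 to 76304792), the other partner in the positive limb, was read in every mouse. Its levels were 26.0, 21.9 and 27.2 CPM in WT corn oil mice and 18.8, 14.5 and 10.6 CPM in WT CITCO mice. All WT CITCO mice lay below all WT corn oil mice. The log2 fold change was -0.77 ± 0.30 (SE, n = 3 per group), which did not pass the test (edgeR adjusted p = 0.395). In hCAR/hPXR mice Clock was at 30.6, 15.6 and 18.4 CPM and in Car KO/hPXR mice at 18.4, 21.7 and 21.4 CPM, and both groups overlapped with WT CITCO.

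**Figure D1:**
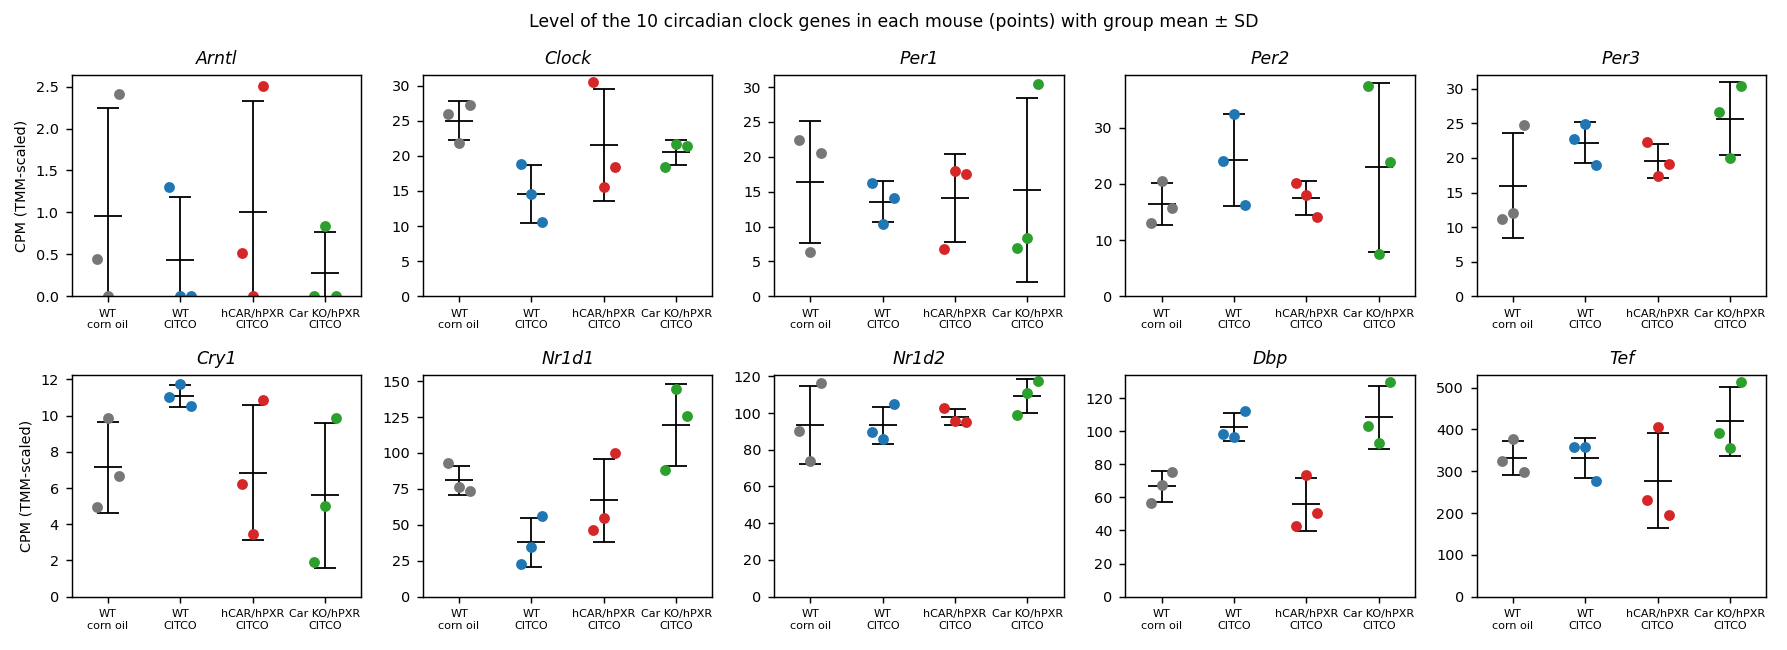
Level of each of the 10 clock genes in CPM (linear axis from 0, 1 panel per gene) in each mouse (points) of the 4 groups, with the group mean and SD (bars, cut at 0 where they reach below it). Arntl stays at or under 2.5 CPM in every mouse, while Nr1d1 is lowest in WT CITCO mice (22.7 to 56.3 CPM) and Dbp is high in WT CITCO and Car KO/hPXR mice and low in WT corn oil and hCAR/hPXR mice.

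In the negative limb, Nr1d1 (ENSMUSG00000020889, chromosome 11, 98767932 to 98775333, minus strand) differed most between groups. It encodes REV-ERB-alpha, the heme-binding repressor of Arntl. The level was 92.7, 76.2 and 73.7 CPM in WT corn oil mice and 22.7, 34.6 and 56.3 CPM in WT CITCO mice. In hCAR/hPXR mice it was 46.1, 55.0 and 100.1 CPM and in Car KO/hPXR mice 88.3, 144.5 and 125.7 CPM. The WT CITCO mice did not overlap with the WT corn oil mice above them, nor with the Car KO/hPXR mice, whereas the hCAR/hPXR mice overlapped with each other group. By mean, Car KO/hPXR (119 ± 28.6 CPM, SD, n = 3) came first, then WT corn oil (80.8 ± 10.4), hCAR/hPXR (67.1 ± 28.9) and WT CITCO (37.8 ± 17.0), and each group in this order overlapped with the next.

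Nr1d1 was called in the test of any difference among the 4 groups (F = 10.2, edgeR adjusted p = 0.0357) and was higher in Car KO/hPXR than in WT mice given CITCO by 1.66 ± 0.31 on the log2 scale (SE, edgeR adjusted p = 0.0297). Between WT CITCO and WT corn oil the log2 fold change was -1.10 ± 0.31, which did not pass the test (edgeR adjusted p = 0.193). The value of hCAR/hPXR against WT CITCO was 0.81 ± 0.31 (adjusted p = 0.434) and against Car KO/hPXR -0.85 ± 0.29 (adjusted p = 0.260). The call between Car KO/hPXR and WT CITCO was lost without Car KO/hPXR replicate 2 (edgeR adjusted p = 0.105), Car KO/hPXR replicate 3 (0.0930), WT CITCO replicate 1 (0.203) or WT CITCO replicate 2 (0.205), and the log2 fold change stayed between 1.39 and 2.05 over the 6 libraries left out in turn. Without WT CITCO replicate 3, the mouse of its group with the highest Nr1d1, the difference between WT CITCO and WT corn oil passed the test, at -1.5 on the log2 scale (edgeR adjusted p = 0.0443). Of 7 cell type marker lists, the 5 endothelial markers did not overlap between Car KO/hPXR (67.3 to 87.7 CPM in sum) and WT CITCO mice (104 to 108 CPM), and their part in the Nr1d1 value was not tested.

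The 3' end of Nr1d1 overlaps by 1075 bases with Thra, which lies on the opposite strand and encodes thyroid hormone receptor alpha, and whether the counting used strand is not given in the sources used here. Thra had 235 counts over all libraries, against 165 to 465 for Nr1d1 in each group of 3. Its log2 fold change between Car KO/hPXR and WT CITCO was 0.91 ± 0.39 (edgeR adjusted p = 0.474), with no overlap between the groups, and its part in the Nr1d1 value was not tested.

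Nr1d2 (chromosome 14, 18204054 to 18239127), the partner of Nr1d1 in sequence and role, stayed between 74.0 and 117 CPM in all 12 mice. Its log2 fold changes in the 4 comparisons ran from -0.16 ± 0.17 (hCAR/hPXR against Car KO/hPXR) to 0.22 ± 0.18 (Car KO/hPXR against WT CITCO), and it did not pass the test in any (lowest edgeR adjusted p = 0.742). The ratio of Nr1d1 to Nr1d2 counts, which does not depend on library scaling, was 0.254 to 0.537 in WT CITCO mice, 0.632 to 1.03 in WT corn oil mice, 0.450 to 1.05 in hCAR/hPXR mice and 0.891 to 1.3 in Car KO/hPXR mice.

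The 3 Period genes, whose proteins restrain the Arntl and Clock pair, and Cry1, which acts with them, did not pass the test in any comparison. Per1 (chromosome 11, 69095217 to 69109960) ranged from 6.35 to 30.4 CPM over the 12 mice, and both WT corn oil and Car KO/hPXR mice spanned a wide range, with 6.99, 8.35 and 30.4 CPM in the latter. Per2 (chromosome 1, 91415982 to 91459324) ranged from 7.52 to 37.5 CPM, both ends of which were Car KO/hPXR mice. Per3 (chromosome 4, 151003652 to 151044665) ranged from 11.2 to 30.4 CPM, and lies within the annotated bounds of Camta1 on the same strand, a gene with 105 counts in all. The standard errors of the Per1 log2 fold changes were 0.51 to 0.54, those of Per2 0.39 to 0.40 and those of Per3 0.30 to 0.31.

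Cry1 (chromosome 10, 85131700 to 85185064) was read at 4.93, 9.87 and 6.64 CPM in WT corn oil mice and at 11, 11.7 and 10.6 CPM in WT CITCO mice, with no overlap. It was at 6.22, 3.47 and 10.8 CPM in hCAR/hPXR and at 1.91, 5.01 and 9.86 CPM in Car KO/hPXR mice, the latter all below WT CITCO. These values rest on 3 to 17 counts per library. The log2 fold change was 0.66 ± 0.50 for WT CITCO against WT corn oil (edgeR adjusted p = 0.750) and -1.03 ± 0.53 for Car KO/hPXR against WT CITCO (adjusted p = 0.580). Cry2, the second Cryptochrome gene, had log2 fold changes between -0.089 and 0.092 in the 4 comparisons.

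Among the output activators, Dbp (ENSMUSG00000059824, chromosome 7, 45705088 to 45710203, plus strand) separated the mice into a high and a low pair of groups. It was read at 56.9, 67.7 and 75.5 CPM in WT corn oil mice and at 43.0, 73.5 and 50.9 CPM in hCAR/hPXR mice. The level was 98.6, 96.8 and 112.5 CPM in WT CITCO mice and 103.5, 92.7 and 129.8 CPM in Car KO/hPXR mice. All 6 mice of the last 2 groups lay above all 6 mice of the first 2, while within each pair the groups overlapped. The group means were 109 ± 19.1 CPM (SD, n = 3) in Car KO/hPXR, 103 ± 8.63 in WT CITCO, 66.7 ± 9.34 in WT corn oil and 55.8 ± 15.8 in hCAR/hPXR mice.

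Dbp was called in the test of any difference among the 4 groups (F = 10.4, edgeR adjusted p = 0.0330) and was lower in mice of the hCAR/hPXR line than in those lacking Car, with a log2 fold change of -0.96 ± 0.21 (SE, edgeR adjusted p = 0.0393). Against WT CITCO, hCAR/hPXR mice had a log2 fold change of -0.88 ± 0.21, which did not pass the test (edgeR adjusted p = 0.0841) and which did without hCAR/hPXR replicate 2 (-1.14, adjusted p = 0.0298). WT CITCO differed from WT corn oil by 0.63 ± 0.20 (adjusted p = 0.303) and Car KO/hPXR from WT CITCO by 0.082 ± 0.20 (adjusted p = 0.938). The call between hCAR/hPXR and Car KO/hPXR was lost without Car KO/hPXR replicate 1 (edgeR adjusted p = 0.107), Car KO/hPXR replicate 3 (0.211), hCAR/hPXR replicate 1 (0.194) or hCAR/hPXR replicate 3 (0.134), and in a fit of these 2 groups alone (0.0673), while the log2 fold change stayed between -1.22 and -0.80 with libraries left out. The marker lists that did not overlap between these groups were those of Kupffer cells (285 to 390 CPM in hCAR/hPXR and 246 to 281 CPM in Car KO/hPXR mice, in sum over 5 genes) and stellate cells (282 to 319 and 203 to 278 CPM). By mean, Clec4f was level (40.9 CPM in both). Vsig4 (27.6 and 29.3 CPM) and Lrat (8.72 and 9.60 CPM) were lower in hCAR/hPXR mice, and the other genes of these 2 lists were higher. The part of these cell types in the Dbp values was not tested.

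The 3' end of Dbp overlaps by 737 bases with Sphk2, a sphingosine kinase gene on the opposite strand with 1255 counts in all. Sphk2 was at 67.2, 87.4 and 80.9 CPM in WT corn oil mice and at 36.3, 49.8 and 38.0 CPM in WT CITCO mice, so that between these groups it lay lower where Dbp lay higher. It was at 88.6, 63.7 and 52.5 CPM in hCAR/hPXR mice and at 90.8, 96.0 and 51.7 CPM in Car KO/hPXR mice, and the latter, with Dbp as high as in WT CITCO, overlapped with WT corn oil in Sphk2. The log2 fold change of Sphk2 was -0.92 ± 0.24 for WT CITCO against WT corn oil (edgeR adjusted p = 0.175). For hCAR/hPXR against Car KO/hPXR it was -0.21 ± 0.24 (adjusted p = 0.831). Its part in the Dbp values was not tested.

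Tef (chromosome 15, 81802421 to 81826863), the second output activator, was read at 194 to 513 CPM over the 12 mice, and every group overlapped with every other. It did not pass the test in any of the 4 comparisons, and its log2 fold change of hCAR/hPXR against Car KO/hPXR was -0.59 ± 0.23 (edgeR adjusted p = 0.331). Without hCAR/hPXR replicate 2, the mouse of its group with the highest Tef, that value was -0.98 (adjusted p = 0.0309). Tef and Dbp varied together over the 12 mice (Pearson r = 0.693 on log2 CPM, and 0.628 with the group means removed), a description over libraries that share their scaling.

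**Figure D2:**
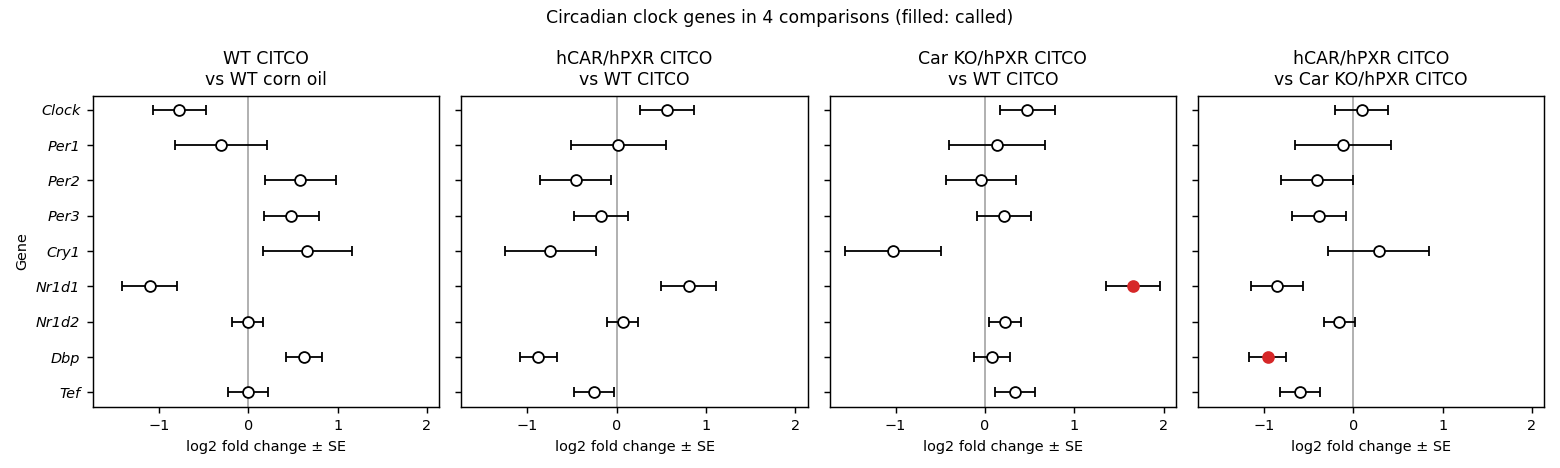
Log2 fold change with its standard error (bars) of the 9 clock genes tested, 1 panel per comparison, from edgeR's fit of all 12 libraries; filled red points were called and open points were not. The 2 filled points are Nr1d1 in Car KO/hPXR against WT CITCO (1.66) and Dbp in hCAR/hPXR against Car KO/hPXR (-0.96).

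Counted over the comparisons, 2 of the 9 clock genes tested (Nr1d1 and Dbp) were called in the test of any difference, where 1.42% of all genes tested were called. Between WT CITCO and WT corn oil, 0 of 9 were called by edgeR and 0 by DESeq2 and limma, while 3 (Clock, Nr1d1 and Dbp) had an unadjusted p under 0.05, as did 9.13% of all genes tested, and 0.233% of all genes were called. Between hCAR/hPXR and WT CITCO, 0 of 9 were called by edgeR, 1 (Dbp) by DESeq2 and 0 by limma, with 2 (Nr1d1 and Dbp) at an unadjusted p under 0.05 against 8.81% of all genes, and 0.407% of all genes called. Between Car KO/hPXR and WT CITCO 1 of 9 was called (Nr1d1) against 0.256% of all genes, and between hCAR/hPXR and Car KO/hPXR 1 of 9 (Dbp) against 0.582%.

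Groups that did not overlap were found for 4 of the 9 genes between WT CITCO and WT corn oil (Clock and Nr1d1 lower, Cry1 and Dbp higher), where 14.7% of all genes tested did not overlap. The same count was 1 between hCAR/hPXR and WT CITCO (Dbp, against 13.7% of all genes), 2 between Car KO/hPXR and WT CITCO (Nr1d1 and Cry1, against 14.2%) and 1 between hCAR/hPXR and Car KO/hPXR (Dbp, against 15.1%). The median log2 fold change of the 9 genes in these 4 comparisons was -0.0026, -0.17, 0.21 and -0.39, beside -0.0008, 0.014, -0.0036 and 0.014 over all genes tested. The first 3 comparisons share the WT CITCO mice.

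To set the positive limb against the negative limb within each mouse, the mean log2 CPM of Per1, Per2, Per3, Cry1, Nr1d1 and Nr1d2 was subtracted from that of Arntl and Clock. The difference was -1.81 ± 0.27 (SD, n = 3) in WT corn oil, -2.41 ± 0.51 in WT CITCO, -1.91 ± 0.39 in hCAR/hPXR and -2.33 ± 0.56 in Car KO/hPXR mice. The mice of each group overlapped with those of every other group, from -2.89 to -1.53 over all 12, and the difference between group means ran from -0.59 (WT CITCO minus WT corn oil) to 0.49 (hCAR/hPXR minus WT CITCO). Arntl, with 0 to 4 counts a library, weighs as much as Clock in this score. With Clock alone as the positive limb, an alternative chosen after the data were seen, WT CITCO lay at -0.78 ± 0.42 and WT corn oil at 0.034 ± 0.10, with no overlap. The hCAR/hPXR mice then lay at -0.21 ± 0.59 and the Car KO/hPXR mice at -0.41 ± 0.39, and both overlapped with WT CITCO and with WT corn oil. These scores were given no test.

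Within the negative limb and output genes the order of the groups was not shared. Nr1d1 was lowest in WT CITCO mice, in which Dbp was high. The ratio of Nr1d1 to Dbp counts, chosen after the values were seen and given no test, was 1.63, 1.13 and 0.976 in WT corn oil mice and 0.230, 0.357 and 0.5 in WT CITCO mice. It was 1.07, 0.748 and 1.97 in hCAR/hPXR and 0.853, 1.56 and 0.968 in Car KO/hPXR mice. The 3 WT CITCO mice lay below the 9 others, and the other groups overlapped. Over the 12 mice, Nr1d1 and Dbp had a correlation of 0.0062 on log2 CPM. Among all pairs of the tested clock genes, the lowest correlation was that of Clock and Dbp (-0.547). After Tef and Dbp, the highest was that of Per3 and Nr1d2 (0.615). These extremes were picked by size and given no test.

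**Figure D3:**
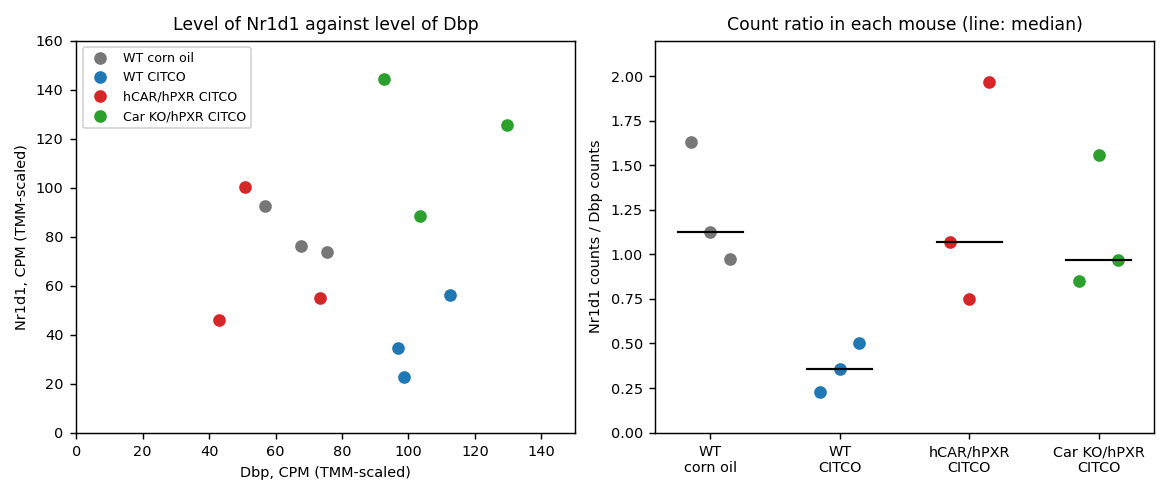
Left, the level of Nr1d1 against that of Dbp in each of 12 mice (CPM, linear axes from 0, colours as groups); right, the ratio of Nr1d1 to Dbp counts in each mouse with the group median as a line. WT CITCO mice sit at the lower right of the left panel and at ratios of 0.230 to 0.5, below the 9 other mice (0.748 to 1.97).

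**Figure D4:**
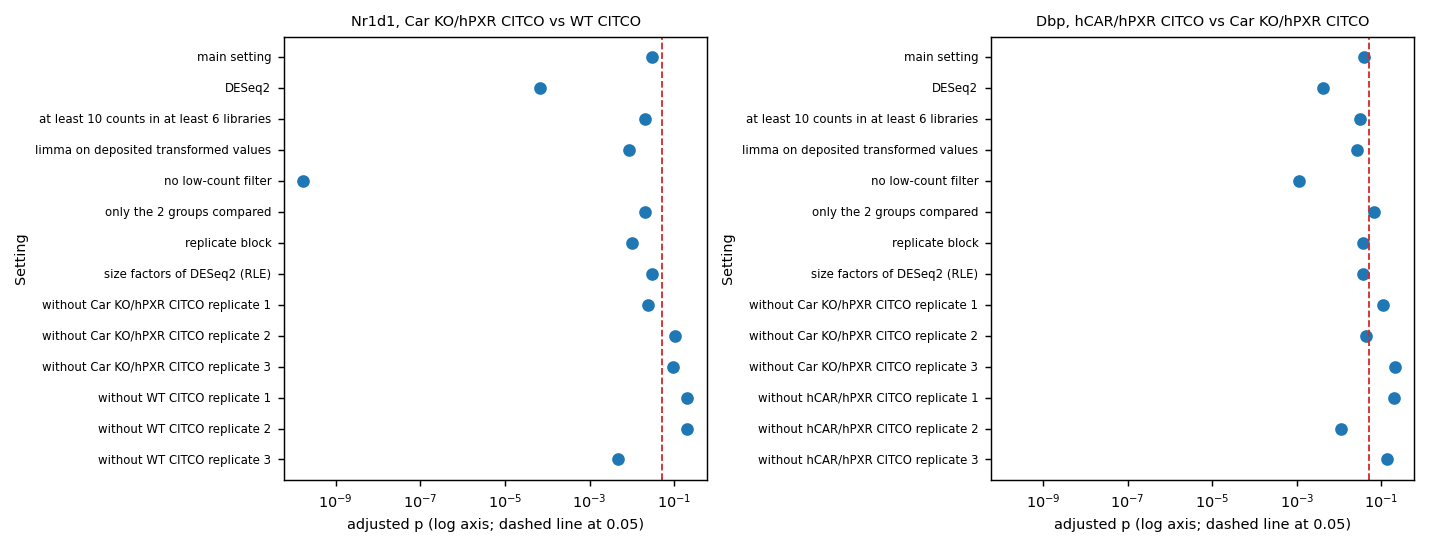
Adjusted p-value (log axis, dashed line at 0.05) of Nr1d1 in Car KO/hPXR against WT CITCO (left) and of Dbp in hCAR/hPXR against Car KO/hPXR (right) under the main setting and each alternative (rows). In both panels 4 of the 6 settings that leave out a library lie to the right of the line, and for Dbp so does the fit of the 2 groups alone (0.0673).

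Of 23 partners of the clock (further core genes, kinases, ligases and binding partners), a list chosen with earlier results of these data known, 18 were tested. Between WT CITCO and WT corn oil, 0 of 18 were called and 1 (Usp2) had an unadjusted p under 0.05, against 9.13% of all genes tested. Nr1i3, on this list although replaced or deleted in these lines, was the 1 of 18 called in each of these lines against WT CITCO. The genotypes fixed these calls, which are no result about the clock, and 0.407% and 0.256% of all genes were called there. With Nr1i3 among them, 4 (hCAR/hPXR) and 2 (Car KO/hPXR) had an unadjusted p under 0.05 (8.81% and 9.3% of all genes). In the 4-group test 1 of 18 was called (1.42%) and 5 had an unadjusted p under 0.05 (11.6%). In hCAR/hPXR against Car KO/hPXR mice 0 of 18 were called (0.582%), with 4 at an unadjusted p under 0.05 (10.6%). Hlf, the third PAR bZIP factor beside Dbp and Tef, was at 38.3, 59.0 and 42.5 CPM in hCAR/hPXR mice, below the 67.0 to 95.3 CPM of the 9 others. Its log2 fold change was -0.68 ± 0.21 against WT CITCO (edgeR adjusted p = 0.262) and -0.72 ± 0.21 against Car KO/hPXR (adjusted p = 0.180), which did not pass the test. Usp2, a deubiquitinase that acts on clock proteins, had a log2 fold change of 0.74 ± 0.24 between WT CITCO and WT corn oil (adjusted p = 0.321) and of -0.78 ± 0.25 between hCAR/hPXR and WT CITCO (adjusted p = 0.266). Bhlhe41, a repressor that competes at E-boxes, was at -1.57 ± 0.54 between hCAR/hPXR and Car KO/hPXR (adjusted p = 0.262), with 3, 13 and 2 counts in hCAR/hPXR and 17, 12 and 15 in Car KO/hPXR mice. Without hCAR/hPXR replicate 2 it was -2.73 and passed the test (adjusted p = 0.0492), and over the 6 libraries left out in turn it ran from -2.73 to -1.17. Nfil3, the repressor that binds the same D-boxes as Dbp, and Ciart, a repressor of the Arntl and Clock pair, had adjusted p-values of at least 0.666 in all 4 comparisons.

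Of 20 genes whose liver transcripts are known to follow the clock, a list chosen in the same way, 18 were tested. In the test of any difference 5 were called (Alas1, Cyp7a1, Insig2, Por and Tspan4), where 1.42% of all genes tested were called. There 12 of 18 had an unadjusted p under 0.05, as did 11.6% of all genes tested. Some genes of the list are also known targets of CAR or PXR, so the list is not a readout of the clock alone. Between WT CITCO and WT corn oil, 1 gene rose and 1 fell by the test, where 0.233% of all genes tested were called. In that comparison 8 of 18 had an unadjusted p under 0.05 (9.13% of all genes) and 10 of 18 did not overlap (14.7%). Alas1, the rate-limiting enzyme of heme synthesis, rose by 1.73 ± 0.32 (log2, edgeR adjusted p = 0.0264), from 186, 51.5 and 129 CPM to 477, 267 and 488 CPM. Insig2, a protein that holds back the processing of sterol-sensing SREBP, fell by a log2 fold change of -1.32 ± 0.24 (adjusted p = 0.0250), from 83.3, 150 and 136 CPM to 61.0, 38.0 and 47.8 CPM, and these groups did not overlap. Between Car KO/hPXR and WT CITCO, Insig2 was higher by 1.23 ± 0.24 (adjusted p = 0.0379), and it was the 1 gene of 18 called there, against 0.256% of all genes tested. In hCAR/hPXR and then Car KO/hPXR against WT CITCO, 4 and 6 of 18 had an unadjusted p under 0.05 (8.81% and 9.3% of all genes). There 2 and 7 did not overlap (13.7% and 14.2%). In hCAR/hPXR against Car KO/hPXR the counts were 7 (10.6%) and 6 (15.1%). Like Nr1d1, Insig2 was lowest in WT CITCO mice.

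Cyp7a1, the rate-limiting enzyme of bile acid synthesis, was the 1 of 18 called between hCAR/hPXR and WT CITCO (-1.59 ± 0.33, edgeR adjusted p = 0.0379), against 0.407% of all genes tested. Tspan4, a tetraspanin of the cell membrane, was the 1 of 18 called in hCAR/hPXR against Car KO/hPXR mice (1.04 ± 0.23, adjusted p = 0.0411), against 0.582% of all genes tested. In this comparison the Kupffer and stellate markers, as sums but not gene by gene, were also higher without overlap. Elovl3, a fatty acid elongase with a strong daily rhythm in liver, was at 145, 210 and 136 CPM in WT corn oil and at 56.4, 80.9 and 91.4 CPM in WT CITCO mice, a log2 fold change of -1.10 ± 0.32 that did not pass the test (adjusted p = 0.223). Wee1, a kinase that delays entry into mitosis, was at 1.08 ± 0.31 in that comparison (adjusted p = 0.226), and Nampt, the rate-limiting enzyme of NAD salvage, at 0.56 ± 0.30 (adjusted p = 0.599). Over the 18 genes the median log2 fold change was 0.13, 0.10, 0.066 and -0.094 in the 4 comparisons, against medians between -0.0036 and 0.014 over all genes tested. Each of these calls was lost in 3 or more of the 6 settings that left out a library: for Alas1 without WT CITCO replicate 1 (adjusted p = 0.204), WT corn oil replicate 2 (0.0845) or replicate 3 (0.151), and for Insig2 against WT corn oil without WT CITCO replicate 1 (0.0529) or replicate 2 (0.209) or WT corn oil replicate 2 (0.159) or replicate 3 (0.151). The Cyp7a1 call was lost without replicate 1 or 3 of either group (0.162 to 0.179), and the calls of Insig2 against Car KO/hPXR and of Tspan4 without any 1 of the 6 libraries (0.0655 to 0.228 and 0.0554 to 0.230). Between WT CITCO and WT corn oil, the endothelial markers did not overlap in sum (104 to 108 and 68.8 to 103 CPM). Nor did the 5 cholangiocyte markers (12.7 to 21.4 and 21.9 to 27.5 CPM in sum). By mean, Pecam1 was slightly lower in WT CITCO mice, and the other endothelial markers were higher. Most of the cholangiocyte sum was Sox9, at a mean of 11.2 CPM in WT CITCO and 18.9 CPM in WT corn oil mice. Spp1 was slightly higher by mean in WT CITCO mice. Krt19, Krt7 and Epcam were lower, with at most 6 counts a library. The part of these cell types in the Alas1 and Insig2 values was not tested.

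**Figure D5:**
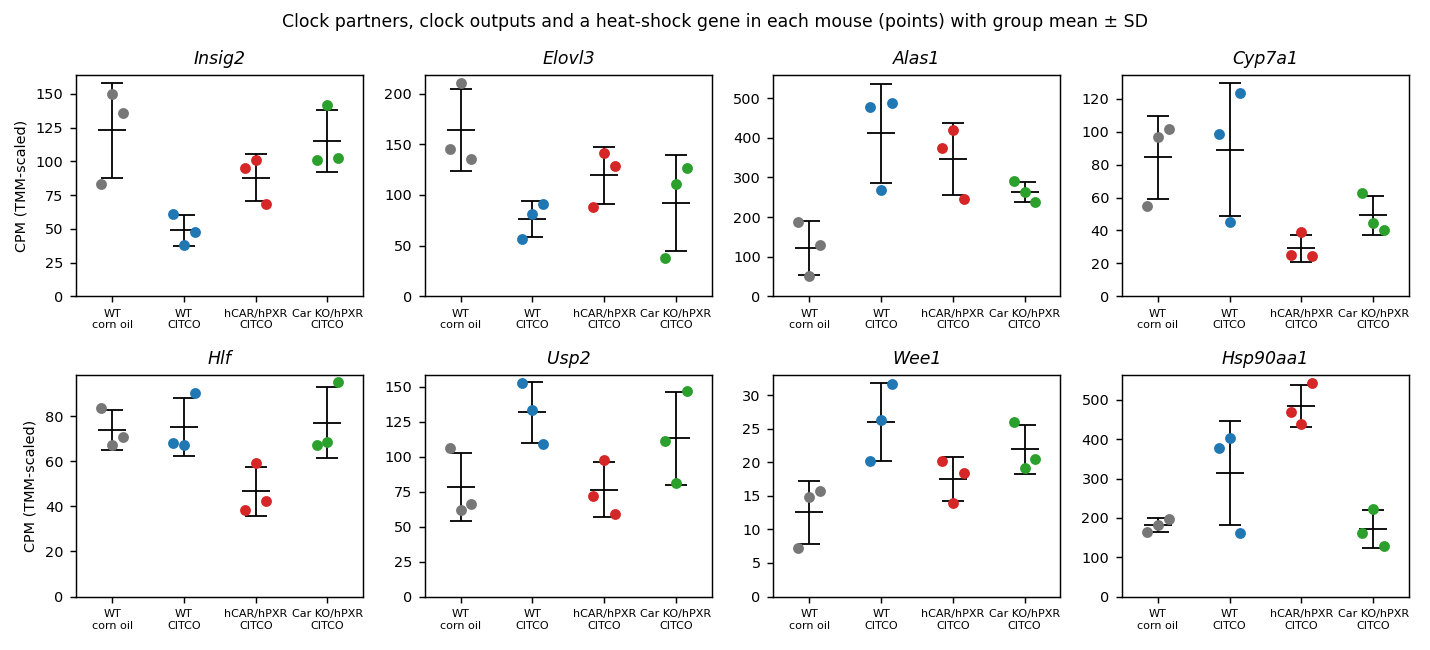
Level in CPM (linear axis from 0) of 7 clock partners and outputs and of the heat-shock gene Hsp90aa1 in each mouse (points) with the group mean and SD (bars). Insig2 and Elovl3 are low in WT CITCO mice and Hlf in hCAR/hPXR mice, and for Hsp90aa1 1 WT CITCO mouse (replicate 3, 162 CPM) lies with the WT corn oil mice.

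Daily signals from outside the liver also set its clock, among them glucocorticoids and body temperature, so genes that respond to these were read in the same mice. Of 5 glucocorticoid-responsive genes (Fkbp5, Tsc22d3, Tat, Sgk1 and Zbtb16), 0 were called by edgeR in any comparison, with 2 at an unadjusted p under 0.05 between WT CITCO and WT corn oil (9.13% of all genes tested were), where all 5 values were below 0 and their median was -0.49 on the log2 scale. Of 8 temperature and heat-shock genes tested, 4 (Hsph1, Hsp90aa1, Hspa1b and Hspb1) were called in the test of any difference, where 1.42% of all genes tested were called. Between WT CITCO and WT corn oil, 6 of 8 had an unadjusted p under 0.05 (9.13% of all genes). The same count was 1 between hCAR/hPXR and WT CITCO (8.81%), 6 between Car KO/hPXR and WT CITCO (9.3%) and 5 between hCAR/hPXR and Car KO/hPXR (10.6%). Hsp90aa1, the inducible HSP90 chaperone, was at 471, 439 and 543 CPM in hCAR/hPXR mice and lower in Car KO/hPXR mice (162, 223 and 130 CPM). The log2 fold change was 1.5 ± 0.26 (edgeR adjusted p = 0.0113), the 1 call of this list between 2 groups, against 0.582% of all genes tested there. That call was lost without Car KO/hPXR replicate 1 (0.0797), Car KO/hPXR replicate 3 (0.0973) or hCAR/hPXR replicate 3 (0.0518). WT CITCO mice were at 378, 402 and 162 CPM and WT corn oil mice at 164, 183 and 198 CPM, so that WT CITCO replicate 3 lay apart from its group. In Hsph1, Hspa1b and Hspb1 this mouse was at 19.0, 13.4 and 33.8 CPM. The other WT CITCO mice were at 67.0, 68.4 and 122 CPM or more. In Dnajb1 and Hspa8 it was the lowest of its group, at 28.8 and 803 CPM. It nevertheless lay above all WT corn oil mice there (at most 15.5 and 713 CPM). Without this mouse, Hsp90aa1 passed the test between WT CITCO and WT corn oil (1.11, edgeR adjusted p = 0.0131), as Nr1d1 did in the same setting. Hsp90aa1 then also passed between Car KO/hPXR and WT CITCO (-1.19, adjusted p = 0.00659). Whether handling, temperature or hour differed for this mouse is not given in the sources used here, and the part of these signals in the clock gene values was not tested.

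By a fixed rule, the genes whose levels followed a clock gene most closely over the 12 libraries were listed among 3205 genes with a mean of at least 50 counts. For Dbp these were Rmnd5a (Pearson r = 0.852 on log2 CPM), Bri3 (0.818), Rhobtb1 (0.815), Fabp1 (0.809) and Gulo (0.802). For Arntl they included Gnas (0.823), Spin1 (0.817), Ugdh (0.761) and Ppip5k2 (0.732), values that rest on the 6 libraries in which Arntl was above 0, with 1 to 4 counts each. For Nr1d1, added after its values were seen, the 3 highest were Samm50 (0.904), Hal (0.899) and Scd1 (0.874). The lists were taken from the top of 3205 correlations over 12 points, and nothing is read from them about shared control.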

How the data were processed

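Liver RNA of 12 mice was analysed. The authors prepared QuantSeq 3' libraries for Ion Torrent and deposited expected counts per gene, unnormalized, estimated by RSEM 1.3 after Trimmomatic and STAR 2.5.2 on the Ensembl annotation of GRCm38 (51912 genes). A second deposited table holds 17859 genes after the variance-stabilising transformation of DESeq2, on a scale close to log2. The strand setting is not given in the sources used here.

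Genes were found by symbol and joined by identifier. Expected counts were rounded, filtered with filterByExpr, scaled by TMM and tested in edgeR 4.0.16 (R 4.3.3) on all 12 libraries with 1 mean per group. Standard errors were derived from the fold change and F statistic. Limb scores used a prior count of 2. DESeq2 1.42.0, limma 3.58.1 on the deposited transformed values, other filters and size factors, fits of 2 groups, a replicate block and leaving out each library were alternatives, and fits were tested on simulated data. Coordinates are from GENCODE on GRCm38 and promoters from RefSeq GRCm38.p6. Named genes were the 10 clock genes, genes picked from the lists, and list genes that were called; overlapping neighbours were added, and genes under this rule that are left out of the text are not reported here. The members and lists were chosen with earlier results of these data known.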

Additional observations from a re-analysis of the deposited data

How the results depend on the processing

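Arntl and Npas2 were read too thinly to be tested, and Cry1, Ciart and Bhlhe41 rest on 2 to 24 counts a library. With 3 mice a group, each call of a clock or output gene between 2 groups was lost without some libraries. In the 4-group test the number of clock genes called was 2 under each of 6 other settings and between 0 and 2 when a library was left out: Nr1d1 was kept without Car KO/hPXR replicate 1, WT CITCO replicate 3 or hCAR/hPXR replicate 3 and lost in the other 9 settings (adjusted p up to 0.139), and Dbp was lost in 7 (up to 0.0997). Leaving out a library gave between 0 and 1 for WT CITCO against WT corn oil, 0 and 1 for hCAR/hPXR against WT CITCO, 0 and 1 for Car KO/hPXR against WT CITCO, and 0 and 2 for hCAR/hPXR against Car KO/hPXR. Without the low-count filter the number was 1 for WT CITCO against WT corn oil, 1 for hCAR/hPXR against WT CITCO and 2 for hCAR/hPXR against Car KO/hPXR, and the numbers of all genes called rose from 20 to 184, from 35 to 184 and from 50 to 235, and from 22 to 227 for Car KO/hPXR against WT CITCO and from 122 to 544 in the 4-group test. DESeq2 gave 1 clock gene for hCAR/hPXR against WT CITCO, and 47, 65, 67, 98 and 229 genes in all for WT CITCO against WT corn oil, hCAR/hPXR and then Car KO/hPXR against WT CITCO, hCAR/hPXR against Car KO/hPXR and the 4-group test. The fit of 2 groups alone gave 0 clock genes for hCAR/hPXR against Car KO/hPXR and called 40 genes in all for Car KO/hPXR against WT CITCO, where limma called 33. With a library left out, all genes called ran from 6 to 54, 17 to 32, 5 to 58, 10 to 58 and 60 to 162 in the order given for DESeq2. Alas1 in WT CITCO against WT corn oil and Cyp7a1 in hCAR/hPXR against WT CITCO lost their calls with 2 groups alone (adjusted p = 0.0574 and 0.0561), and Cyp7a1 with limma (0.0517). The cause was not tested. On log2 CPM the limb differences moved by less than the spread between mice in every alternative. On the deposited values the score spread less (SD within groups 0.077 to 0.25, against 0.27 to 0.56). The size of its differences there cannot be set against the spread on log2 CPM. The limb difference of Car KO/hPXR minus WT CITCO (0.076) was -0.15 without Cry1, -0.065 on the deposited values and -0.12 without WT CITCO replicate 3. It was -0.20 without Car KO/hPXR replicate 2 and -0.019 when WT CITCO replicate 2 was left out. With a library left out the others ran from -0.88 to -0.40 (WT CITCO minus WT corn oil), 0.30 to 0.78 (hCAR/hPXR minus WT CITCO) and 0.14 to 0.70 (hCAR/hPXR minus Car KO/hPXR).

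Same-numbered mice of the 4 groups had consecutive numbers in the sample descriptions, and what else they shared is not given in the sources used here. Over 18 same-numbered pairs the correlation of deviations from group means ran from -0.10 to 0.167 with a median of 0.0040. With a replicate block the clock genes called stayed at 2, 0, 0, 1 and 1, and all genes called were 108, 20, 33, 24 and 53. The order is the 4-group test, WT CITCO against WT corn oil, hCAR/hPXR and then Car KO/hPXR against WT CITCO, and hCAR/hPXR against Car KO/hPXR. The block ended the calls of Cyp7a1 (edgeR adjusted p = 0.0713) and of Insig2 in Car KO/hPXR against WT CITCO (0.0504).

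Values near 0 turned sign under other settings. Cry2 in hCAR/hPXR against WT CITCO (0.0029) was -0.015 with DESeq2 and with its size factors, -0.0031 with at least 10 counts in 6 libraries, -0.024 with limma, -0.022 with no filter, -0.0048 with 2 groups alone and -0.011 with the block. Nr1d2 in WT CITCO against WT corn oil (-0.0056) was 0.014 with limma and 0.0035 with the block, and Tef there (-0.0026) was 0.0020 with DESeq2, 0.00064 with at least 10 counts in 6 libraries, 0.0011 with no filter and 0.0023 with DESeq2's size factors. Per1 was -0.0072 (Car KO/hPXR against WT CITCO) and -0.0083 (hCAR/hPXR against WT CITCO) with limma, -0.0020 in the latter with no filter, and 0.029 in hCAR/hPXR against Car KO/hPXR with the block.

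With a library left out, log2 fold changes that turned sign ran, in WT CITCO against WT corn oil, from -0.0086 to 0.60 for Bhlhe41, -0.53 to 0.63 for Ciart, -0.0070 to 0.17 for Cry2, -0.22 to 0.42 for Cyp7a1, -0.13 to 0.13 for Hlf, -0.79 to 0.043 for Nfil3, -0.13 to 0.18 for Nr1d2 and -0.077 to 0.11 for Tef. In hCAR/hPXR against WT CITCO they ran from -0.17 to 0.13 for Cry2, -0.0066 to 0.15 for Nr1d2 and -0.24 to 0.37 for Per1. In Car KO/hPXR against WT CITCO they ran from -1.19 to 0.33 for Ciart, -0.12 to 0.22 for Cry2, -0.064 to 0.18 for Dbp, -0.055 to 0.64 for Elovl3, -0.15 to 0.18 for Hlf, -0.47 to 0.31 for Nfil3, -0.83 to 0.51 for Per1 and -0.62 to 0.35 for Per2. In hCAR/hPXR against Car KO/hPXR they ran from -1.09 to 0.21 for Ciart, -0.28 to 0.29 for Clock, -0.17 to 0.97 for Cry1, -0.26 to 0.12 for Cry2, -0.58 to 0.033 for Nampt, -0.50 to 0.85 for Per1 and -0.81 to 0.16 for Per2.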
